A study of Mus musculus with 8 samples.

Results

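Egr1, Egr2, Egr3, Nab1 and Nab2 are 5 of the 24976 gene symbols in a count table of mouse CD8+ T cells, and they were taken by name. Egr1, Egr2 and Egr3 encode EGR transcription factors, and Nab1 and Nab2 encode the corepressors that bind them. All 5 passed the filter on low counts, which kept 12742 genes. Naive CD8+ T cells were activated in culture with 2 μg/ml of antibody to CD3 and 1 μg/ml of antibody to CD28, with 10 ng/ml of IL2 added, and RNA was collected in bulk after 24 or 48 h. One genotype was Cd8Cre NR4a1flox/floxNR4a2flox/flox, labelled dKO, in which a Cre transgene named for Cd8 acts on both floxed genes. The other was the wild-type littermates (WT). Each of the 4 groups has 2 libraries. All groups received the same antibodies and IL2, and unstimulated cells are not among the libraries. The sources used here do not give age, the exons removed, or whether the 2 libraries of a group came from separate animals, so p-values measure only the spread between these libraries.

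EGR factors are zinc finger proteins that bind a short GC-rich element. Their genes belong to the immediate early class, whose transcription starts within minutes of a signal without new protein synthesis. In T cells, signals from the T cell receptor reach them through RAS, ERK and serum response factor, which binds CArG boxes together with ELK partners, and for Egr2 and Egr3 also through NFAT. Egr1 is known mostly for activating genes such as Il2 and Tnf, while Egr2 and Egr3 are known for restraining T cell activation and for a role in anergy. NAB1 and NAB2 have no DNA binding domain of their own. They dock on a domain shared by EGR1, EGR2 and EGR3 but absent from EGR4, recruit the NuRD chromatin complex through its subunit CHD4, and are themselves induced by EGR factors, which closes a feedback loop.

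Motif matches around the annotated starts of Egr2 and Nab1 show the 2 kinds of element named above in these genes. RefSeq windows (GRCm38.p6, 250 bases before to 50 bases after a start) were found for 3 of the 5 genes: Egr2 with 5 starts, and Nab1 and Nab2 with 1 start each. In each line the capitals mark the match and the bases run 5′ to 3′ on the strand of the gene.
Egr2, chr10:67537787-67537816, plus strand: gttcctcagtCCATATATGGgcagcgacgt
Egr2, chr10:67537484-67537513, plus strand: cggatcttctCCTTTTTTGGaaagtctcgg
Nab1, chr1:52500570-52500599, minus strand: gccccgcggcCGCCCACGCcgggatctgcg
Nab1, chr1:52500538-52500567, minus strand: actcggccgcGCGTGGGCGggagccggagc
Nab1, chr1:52500467-52500496, minus strand: gcggggcgggGCGGGGGCGgcggaggtggc
The Egr2 sequences hold CArG boxes, and each box begins 72 bases before an annotated start. In the GENCODE models both lie within the span of Egr2 and outside its exons. The Nab1 sequences hold the EGR element GCGNGGGCG, the first of them on the opposite strand. All 3 printed stretches overlap exon sequence in the GENCODE models of Nab1. Both strands of every window were searched for 6 motifs. Of all 32851 mouse windows, 5.55% held the EGR element, and 0.195% held at least 3 matches to it. The Nab1 window is 81.7% G and C, and the share among windows of like content was not counted. The other shares were 1.63% for the CArG box, 1.51% for the NR4A monomer element AAAGGTCA, 1.79% for the cyclic AMP response element TGACGTCA, 7.81% for the AP-1 element TGANTCA and 3.89% for the ETS element CCGGAAGT. The Nab2 window held none of the 6, and Egr2 and Nab1 held no other of them. A match describes letters in a window and shows no binding.

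In the GENCODE M21 annotation of GRCm38, Egr2 spans 67535475 to 67542188 on the plus strand of chromosome 10. Egr3 spans 70077203 to 70082614 on the plus strand of chromosome 14. Nab1 spans 52457294 to 52500679 on the minus strand of chromosome 1, and Nab2 spans 127660918 to 127668568 on the minus strand of chromosome 10. Only Nab2 overlapped other genes, all on the opposite strand: Stat6 over 40 bases, the antisense gene Gm16229 over 1646 bases and Nemp1 over 1668 bases. Whether counting used strand is not given, so reads of Nab2 and of these genes cannot be told apart where they overlap.

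Total counts ran from 5000952 to 21686236 per library, with the highest in WT 48 h replicate 2. Levels are given as counts per 1e6 counts (CPM), scaled between libraries by the trimmed mean of M values (TMM). Defining CD8 T cell markers were present: 6 of 7 were in the table, with a summed level of 1203 to 2413 CPM of total counts. That sum was 1203 to 1475 in WT at 48 h and 1789 to 2413 in the other 6 libraries. It precedes the TMM scaling, whose factors were lowest in WT at 48 h (0.836 and 0.878 against 0.968 to 1.17). After that scaling Cd8a, Cd8b1 and Lck were still lowest in the WT 48 h libraries, while Cd3d, Cd3e and Cd3g overlapped with other libraries. Of the 6 markers tested, 0 were called between genotypes at 48 h. In WT at 48 h the 7 of 8 myeloid markers in the table summed to 11.5 to 13.8 CPM against 6.47 to 7.84 elsewhere, with Lyz2 at 0 in all 8 libraries. The markers did not move together. By TMM-scaled group mean, Cd14 stood at 11.2 CPM in WT at 48 h against 3.58 to 4.73 in the other groups. Tyrobp and Csf1r were also highest there, at 1.67 and 0.802 CPM. Cd68 was lowest there, at 0.723 against 1.37 to 2.23 CPM, and Itgam and Fcer1g lay within the range of the other groups. The 7 red cell, platelet and stromal markers summed to 2.81 to 3.28 CPM in WT at 48 h against 1.16 to 1.89 elsewhere, with Hbb-bs, Hba-a1 and Col1a2 at 0 in all 8. By group mean, Pf4 stood at 2.69 CPM in WT at 48 h against 0.932 to 1.11, and Col1a1, Ppbp and Sparc at 0.605 CPM or less. Markers of B cells (4 of 5 in the table, 3.42 to 7.04 CPM), of CD4 and regulatory T cells (3 of 3, 1.58 to 4.81 CPM) and of NK and gamma delta T cells (2 of 3, 0 to 0.288 CPM) were low. Replicates of WT at 48 h stood further apart than others, with a median absolute log2 difference of 0.364 across genes against 0.149 to 0.195, and Rpl and Rps genes took 6.36% of counts in replicate 2 against 10.0% to 12.1% in the other libraries. Of the targeted genes, Nr4a2 was higher in both libraries labelled dKO than in both WT libraries at each time. Nr4a1 stood at 276 and 526 CPM in WT and at 506 to 533 CPM in dKO at 24 h, and at 779 to 881 CPM in WT and 635 to 669 CPM in dKO at 48 h, and it was not called between genotypes at either time (adjusted p = 0.88 and 0.38 in edgeR). The counts thus do not check the deletion, and directions below are those of the labels. Xist was at 323 to 805 CPM in WT and 0.719 to 1.80 CPM in dKO, and the sum of 4 Y-linked genes at 1.28 to 1.75 against 131 to 175 CPM. Genotype and the sex of the cells therefore cannot be told apart here. The part of any of these properties in the results below was not tested.

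Between 24 and 48 h Egr2 was the single member called with all 8 libraries, in both genotypes. It fell by 53.0% in WT and by 52.6% in dKO. The other EGR genes were lower and both NAB genes higher at 48 h by amounts that were not called after adjustment. A gene not called is not shown to be unchanged. In bulk RNA, fewer cells of a type and less RNA per cell cannot be told apart, which holds for every level given here.

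Egr2 stood at 60.6 and 50.7 CPM in the WT libraries at 24 h and at 29.7 and 23.2 CPM at 48 h. In the libraries labelled dKO it stood at 49.2 and 52.4 CPM at 24 h and at 24.7 and 23.4 CPM at 48 h. Every 48 h library lay below every 24 h library. In WT the group means were 55.6 ± 7.00 and 26.4 ± 4.64 CPM (SD, n = 2 each), a log2 fold change of -1.09 (SE 0.170, 95% interval -1.47 to -0.71, adjusted p = 0.00275). In dKO the means were 50.8 ± 2.26 and 24.0 ± 0.937 CPM (SD, n = 2 each), a log2 fold change of -1.08 (SE 0.172, interval -1.46 to -0.69, adjusted p = 0.0101). Both come from edgeR's quasi-likelihood F test over all 12742 genes, with p adjusted by the Benjamini-Hochberg method and a gene called below 0.05. Egr2 was the single member called of 5 in each genotype, beside 11.4% of all genes tested in WT and 3.63% in dKO. Of all genes tested, 1.98% had a lower log2 fold change with time in WT and 4.15% in dKO. The call in WT held with any 1 library left out (adjusted p at most 0.0355) and was lost when only the WT libraries entered the fit (0.0661). The call in dKO was lost without any 1 of the 4 dKO libraries: adjusted p was 0.115 and 0.124 without replicate 1 or 2 at 24 h, and 0.139 and 0.169 without replicate 1 or 2 at 48 h. The log2 fold change stayed between -1.12 and -1.03 in those fits.

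**Figure D1:**
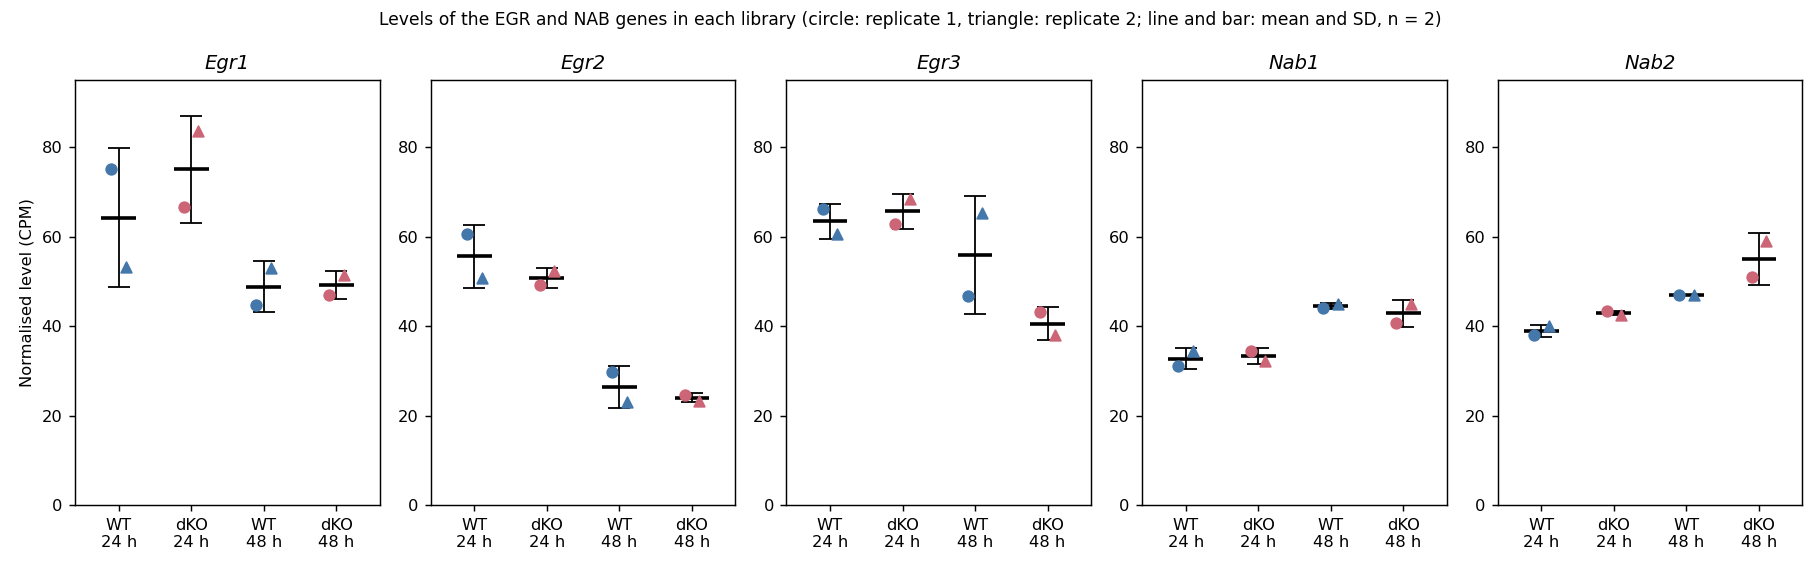
Level in CPM (vertical axis) of each of the 5 genes in the 4 groups, with each library as a point and the mean and SD as a line and bar (n = 2). Egr2 sits at 49.2 to 60.6 CPM in the 24 h libraries and at 23.2 to 29.7 CPM in the 48 h libraries, while the libraries of the 2 genotypes lie close together at each time.

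Egr1, the factor best known as an activator, stood at 75.2 and 53.3 CPM in WT at 24 h and at 44.8 and 52.9 CPM at 48 h. In dKO it stood at 66.6 and 83.5 CPM at 24 h and at 47.0 and 51.4 CPM at 48 h. The 24 h libraries thus lay above the 48 h libraries, in WT by a small margin. The log2 fold change with time was -0.39 in WT (SE 0.195, interval -0.82 to 0.05, adjusted p = 0.258) and -0.60 in dKO (SE 0.196, interval -1.04 to -0.17, adjusted p = 0.119). Neither was called. The WT value moved to -0.13 without WT 24 h replicate 1, and the dKO value was called without WT 48 h replicate 1 or 2 (-0.58, adjusted p = 0.0156 in each case).

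Egr3, which acts together with Egr2 in limiting T cell responses, stood at 66.2 and 60.7 CPM in WT at 24 h and at 46.6 and 65.2 CPM at 48 h. In dKO it stood at 62.8 and 68.4 CPM at 24 h and at 43.2 and 37.9 CPM at 48 h. The times overlapped in WT, where replicate 2 at 48 h was as high as the 24 h libraries, and did not overlap in dKO. The log2 fold change was -0.17 in WT (SE 0.176, interval -0.56 to 0.22, adjusted p = 0.609) and -0.69 in dKO (SE 0.180, interval -1.09 to -0.29, adjusted p = 0.0688). In WT the value was 0.05 without WT 48 h replicate 1 and -0.45 without replicate 2, each with 1 WT library left at 48 h. In dKO it was called without either WT 48 h library (adjusted p = 0.000842 without replicate 1 and 0.000836 without replicate 2), although neither is in the groups compared.

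Egr4, the family member that NAB proteins do not bind, was counted 8 and 6 times in WT at 24 h and 5 and 9 times at 48 h. The libraries labelled dKO had 24 and 3 counts at 24 h and 1 and 4 at 48 h. It did not pass the filter on low counts and was not tested. The 2 libraries of dKO at 24 h differed the most, and no direction was detectable at this depth.

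Nab1 stood at 31.1 and 34.5 CPM in WT at 24 h and at 44.1 and 45.0 CPM at 48 h. In dKO it stood at 34.6 and 32.2 CPM at 24 h and at 40.8 and 45.0 CPM at 48 h. All 4 libraries at 48 h lay above all 4 at 24 h. The log2 fold change was 0.44 in WT (SE 0.143, interval 0.12 to 0.76, adjusted p = 0.0797) and 0.36 in dKO (SE 0.144, interval 0.04 to 0.68, adjusted p = 0.177). Without WT 48 h replicate 1 or 2 the adjusted p was 0.0122 and 0.0487 in WT and 0.0292 and 0.0295 in dKO.

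Nab2, itself a known target of EGR factors, stood at 38.1 and 39.9 CPM in WT at 24 h and at 47.0 and 46.9 CPM at 48 h. In dKO it stood at 43.3 and 42.6 CPM at 24 h and at 50.9 and 59.1 CPM at 48 h. The 48 h libraries lay above those at 24 h within each genotype. The log2 fold change was 0.27 in WT (SE 0.140, interval -0.05 to 0.58, adjusted p = 0.284) and 0.36 in dKO (SE 0.140, interval 0.04 to 0.67, adjusted p = 0.168). Scaling by library size alone turned the WT value to -0.10. That scaling moved the median of all genes by -0.36 in WT and -0.17 in dKO, so relative to all genes Nab2 remained higher.

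All 5 genes had an unadjusted p below 0.05 with time in dKO, where 23.3% of all genes tested did, against 2 of 5 in WT, where 24.6% did. The libraries of the 2 times did not overlap for 5 of 5 genes in dKO, where 66.3% of all genes tested did not, and for 4 of 5 in WT, where 47.1% did not. All 5 were called in dKO when only the dKO libraries entered the fit, beside 37.3% of genes, and without WT 48 h replicate 1 or 2, beside 24.9% and 25.0% of genes. Egr1, Egr2 and Egr3 were then lower and Nab1 and Nab2 higher at 48 h. Without any 1 of the dKO libraries, 0 of 5 were called. In those fits 0.256% and 0.519% of all genes were called without replicate 1 or 2 at 24 h, and 0.315% and 0.241% without replicate 1 or 2 at 48 h, so 0 of 5 lies near the share of all genes.

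**Figure D2:**
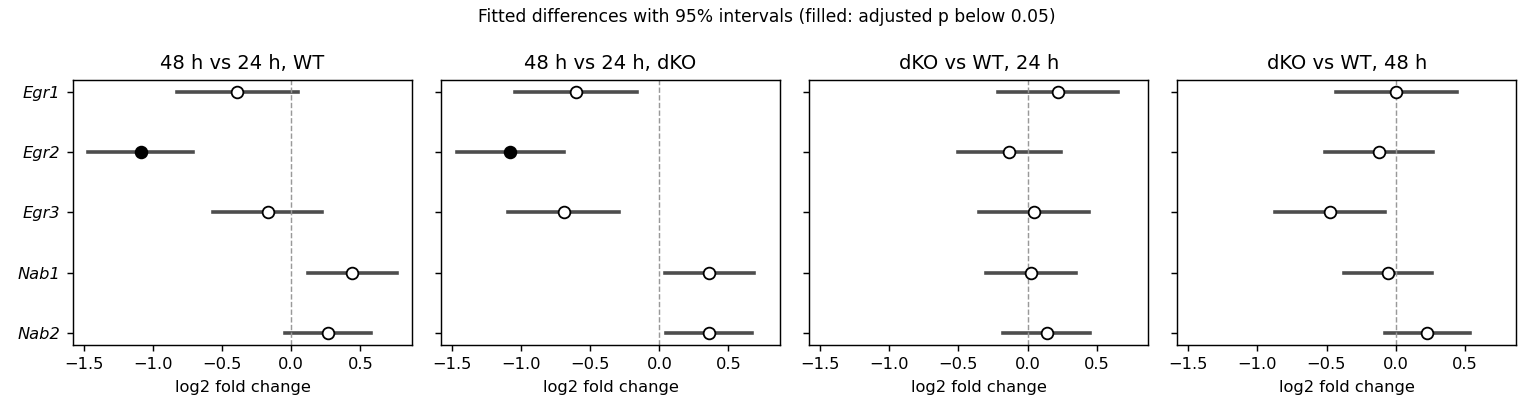
Fitted log2 fold change (horizontal axis) of each gene in 4 comparisons, with points for estimates, lines for 95% intervals and filled points for adjusted p below 0.05. Egr2 with time is filled in both genotypes, at -1.09 and -1.08, and no other point is filled.

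**Figure D3:**
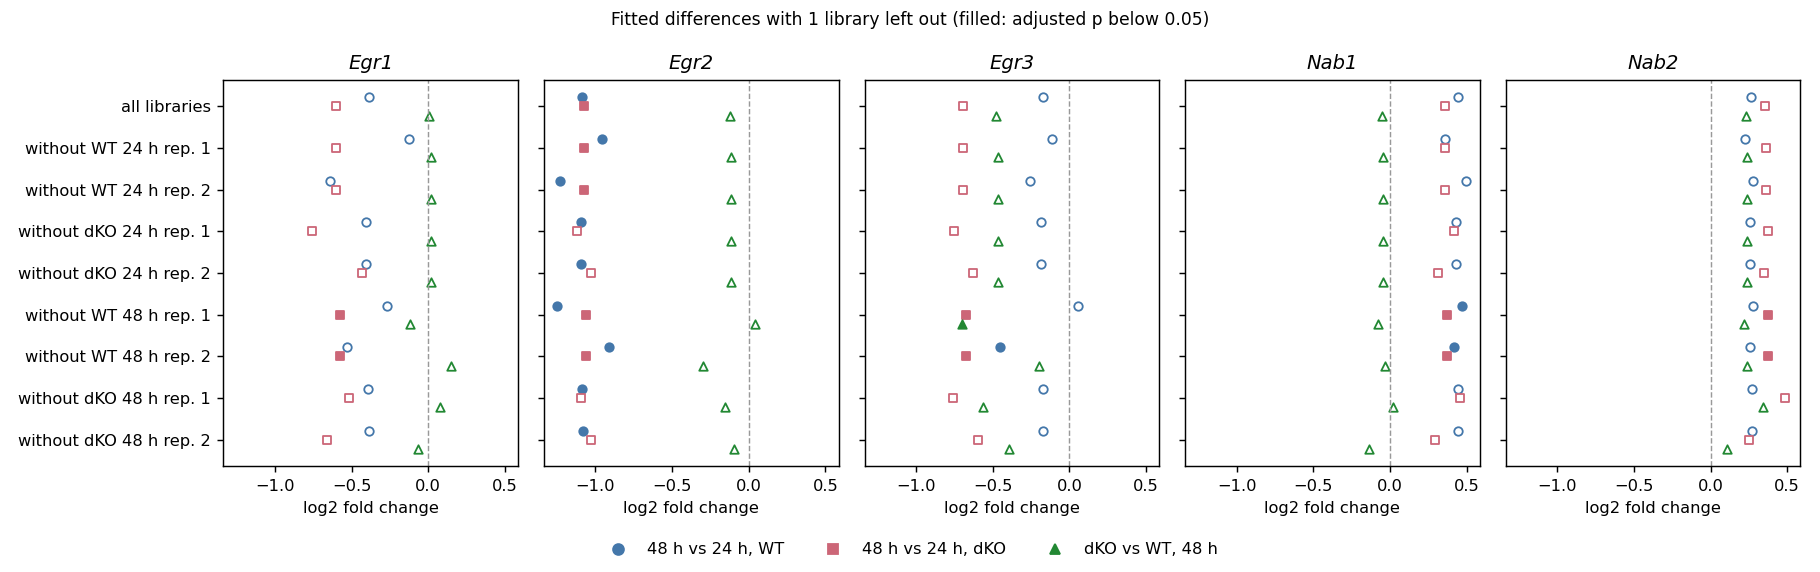
Log2 fold change (horizontal axis) of each gene with all libraries and with each library left out (vertical axis), for time in WT, time in dKO and genotype at 48 h. Egr2 stays near -1 with time in every fit, and Egr3 at 48 h is spread from -0.70 to -0.20 between the fits without WT 48 h replicate 1 and replicate 2.

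Between the genotypes, none of the 5 genes was called at either time. At 24 h 0 of 5 were called, beside 0.432% of all genes tested (46 higher and 9 lower in dKO). The log2 differences, dKO against WT, were 0.22 for Egr1 (interval -0.21 to 0.65), -0.13 for Egr2 (-0.50 to 0.24) and 0.05 for Egr3 (-0.35 to 0.44). For the corepressors they were 0.03 for Nab1 (-0.30 to 0.35) and 0.14 for Nab2 (-0.18 to 0.46). The adjusted p ran from 0.9 to 0.987. These intervals leave out a change of 1 log2 unit in either direction at 24 h.

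At 48 h 0 of 5 were called as well, beside 11.2% of all genes tested (406 higher and 1024 lower in dKO). Egr3 was lowest in dKO, at 43.2 and 37.9 CPM against 46.6 and 65.2 CPM in WT. Both dKO libraries lay below both WT libraries. The group means were 40.6 ± 3.70 and 55.9 ± 13.1 CPM (SD, n = 2 each), and the log2 difference was -0.48 (SE 0.178, interval -0.87 to -0.08). Its adjusted p was 0.103 in edgeR and its unadjusted p was 0.0241, a level that 33.1% of all genes reached. Leaving out WT 48 h replicate 1 gave -0.70, and leaving out replicate 2 gave -0.20. Each of these fits keeps 1 WT library at 48 h, with no spread of its own. The other differences were 0.01 for Egr1 (interval -0.43 to 0.44), -0.12 for Egr2 (-0.51 to 0.27), -0.05 for Nab1 (-0.37 to 0.26) and 0.23 for Nab2 (-0.08 to 0.54). Nab2 was higher in both dKO libraries than in both WT libraries at 24 and at 48 h, and was not called (adjusted p = 0.9 and 0.269 in edgeR). The share of all genes separated in this way between genotypes was not counted. The separation of Nab2 and of Egr3 thus cannot be set against it.

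Over both times 0 of 5 were called, beside 7.80% of genes. The differences ran from -0.21 for Egr3 (interval -0.50 to 0.07) to 0.18 for Nab2 (interval -0.04 to 0.41), with Egr2 at -0.13, Nab1 at -0.01 and Egr1 at 0.11. The genotype by time interaction, which asks whether the change with time differed between genotypes, was called for 0 of 5 and for 0 of all genes tested (0%, with 1575 genes at an unadjusted p below 0.05 and 0 called by DESeq2). For Egr2 it was 0.01 (SE 0.241, interval -0.53 to 0.55), so the fall in the 2 genotypes did not differ by more than these bounds. For Egr3 it was -0.52 (SE 0.251, interval -1.08 to 0.04, adjusted p = 0.424). Without WT 48 h replicate 1 it was -0.73 and without replicate 2 it was -0.22, each with 1 WT library left at 48 h. For Egr1, Nab1 and Nab2 it was -0.21, -0.08 and 0.09, with adjusted p from 0.746 to 0.874.

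The order of levels by group followed from these values. For Egr2, the WT and dKO means at 24 h (55.6 and 50.8 CPM) came before those at 48 h (26.4 and 24.0 CPM), and neighbours within a time did not differ beyond their spread. For Egr1 the order was dKO at 24 h (75.0 ± 11.9), WT at 24 h (64.2 ± 15.5), dKO at 48 h (49.2 ± 3.12) and WT at 48 h (48.8 ± 5.77 CPM, SD, n = 2 each), with overlap between the genotypes at each time. For Egr3 it was dKO at 24 h (65.6 ± 3.97), WT at 24 h (63.4 ± 3.91), WT at 48 h (55.9 ± 13.1) and dKO at 48 h (40.6 ± 3.70 CPM). Only the last of these stood clear of its neighbour, and by little. For Nab1 it was WT at 48 h (44.5 ± 0.634), dKO at 48 h (42.9 ± 2.94), dKO at 24 h (33.4 ± 1.70) and WT at 24 h (32.8 ± 2.45 CPM), which separated the times and not the genotypes. For Nab2 it was dKO at 48 h (55.0 ± 5.80), WT at 48 h (46.9 ± 0.0795), dKO at 24 h (42.9 ± 0.532) and WT at 24 h (39.0 ± 1.32 CPM), with no overlap between neighbours. The share of all genes ordered in this way was not counted, so these orders cannot be set against it. With all 8 libraries, neither Nab2 nor Egr3 was called between genotypes at either time.

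Shares within a library do not depend on the scaling between libraries. Egr2 made up 29.99% and 30.8% of the counts of Egr1, Egr2 and Egr3 in WT at 24 h, and 24.5% and 16.4% at 48 h. In dKO it made up 27.6% and 25.7% at 24 h and 21.5% and 20.7% at 48 h. The 24 h libraries held the higher share in each genotype. Exact binomial intervals, which cover counting error only, were 15.02 to 17.9% for WT 48 h replicate 2 and 21.4 to 27.9% for replicate 1, so these replicates differed beyond counting error. Egr3 took a larger part in that library, with 46.1% of the counts in replicate 2 against 32.8 to 38.5% in the other 7 libraries.

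Nab1 and Nab2 together made up 25.5% and 31.1% of the counts of the 5 genes in WT at 24 h and 42.9% and 39.4% at 48 h. In dKO they made up 30.4% and 26.8% at 24 h and 44.4% and 48.0% at 48 h. Corepressor counts thus took a larger share at 48 h in all 4 libraries than in any at 24 h. Within the pair, Nab2 made up 51.0 to 51.6% in WT at 48 h and 53.6 to 57.0% in the other 6 libraries. Counts are not corrected for gene length, so a share compares libraries and not genes.

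**Figure D4:**
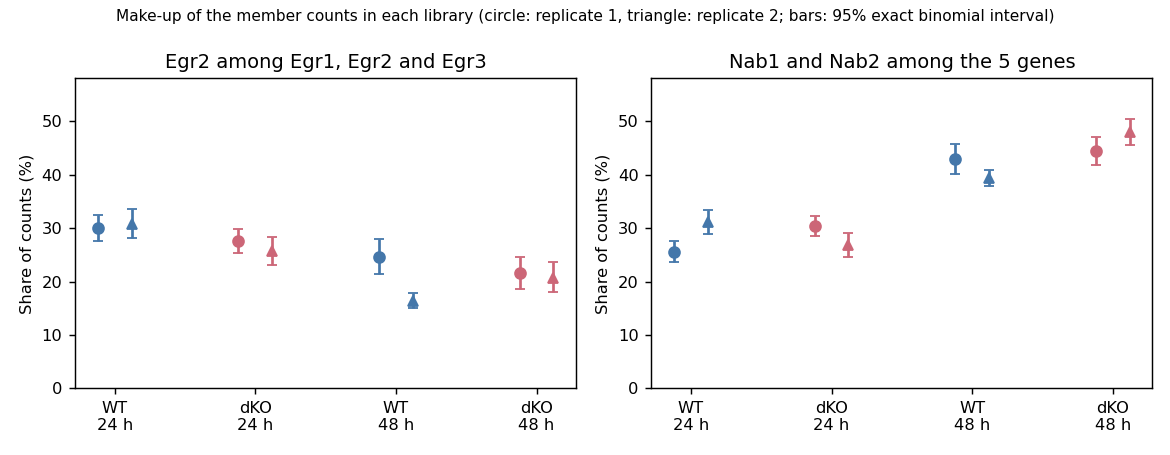
Share of counts (%, vertical axis) of Egr2 among the 3 EGR genes (left) and of Nab1 and Nab2 among the 5 genes (right) in each library, with 95% exact binomial intervals. The corepressor share is 25.5 to 31.1% in the 24 h libraries and 39.4 to 48.0% in the 48 h libraries.

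The levels of Egr2 and Nab1 ran against each other over the 8 libraries, with a Pearson r of -0.96 for log2 CPM. Every other pair of an EGR and a NAB gene also had a negative r, from -0.87 to -0.59. Within the EGR genes r was 0.70 to 0.78, and for Nab1 with Nab2 it was 0.82. These describe 8 points that share 4 group means and carry no test. Among 8667 other genes with a mean of at least 50 counts, those most like Egr2 were Ly6a (r = 0.987), Itprip (0.986) and Ypel3 (0.983). Ly6a, which encodes the surface protein Sca-1, stood at 442 ± 54.8 and 380 ± 40.8 CPM at 24 h in WT and dKO, and at 240 ± 24.7 and 234 ± 2.27 CPM at 48 h. Those most like Egr1 were Zfp930 (0.978), H2-Q5 (0.969) and Zfp764 (0.950). Those most like Egr3 were Fam120c (0.994), Rsf1 (0.986) and Fam208a (0.985). Fam120c stood at 4.61 and 8.16 CPM in the WT libraries at 48 h and at 2.73 to 3.27 CPM in dKO. Nab1 was most like Fli1 (0.971), Scd2 (0.969) and Aurka (0.965), and Nab2 was most like Ccnd3 (0.980), Tia1 (0.979) and Gtf3a (0.979).

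The rest of the immediate early class was described with a list of 24 genes, all tested. With time in WT 2 rose and 7 fell, with a median log2 fold change of -0.39 against 0.00 for all genes. In dKO 0 rose and 4 fell, with a median of -0.26 against -0.01. Fosl1, an AP-1 subunit, fell by 1.20 on the log2 scale in WT and by 1.62 in dKO. Nr4a2, one of the targeted genes, fell by 0.90 and 0.87. In WT, Ier2 fell by 0.70 and Klf6, a zinc finger factor, rose by 0.66. In dKO, the AP-1 gene Fosl2 fell by 1.08 and Klf2, a factor of quiescent T cells, fell by 1.65. Of the 24 genes, 37.5% were called in WT and 16.7% in dKO, beside 11.4% and 3.63% of all genes. The list was chosen with earlier results of these data known, so these shares cannot serve as a test of it. With 1 library left out, the number that fell in WT was lowest without WT 24 h replicate 1 and highest without WT 48 h replicate 1. In dKO it was lowest without dKO 24 h replicate 1 or either dKO 48 h replicate and highest without either WT 48 h replicate. The share of all genes called was highest in the same fits. In dKO that share was lowest without dKO 48 h replicate 2, and in WT it was lowest without WT 24 h replicate 2, where the number that fell was not lowest. With only the groups compared in the fit, 0 rose and 0 fell in WT, where 0.251% of all genes were called, and 4 rose and 12 fell in dKO, where 37.3% were. In WT 1 rose and 14 fell with library size alone, and 2 rose and 3 fell in DESeq2, where 26.4% and 8.66% of all genes were called.

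By genotype, 1 immediate early gene rose at 24 h (Nr4a2, by 1.35), and 6 rose and 1 fell at 48 h. At 48 h Nr4a2 rose by 1.38, the AP-1 gene Junb by 0.72 and Ier2 by 0.61, and Klf2 fell by 1.42. Over both times 5 rose and 1 fell, among them Dusp2, a phosphatase of MAP kinases, by 0.49. At 48 h 29.2% of the list was called, beside 11.2% of all genes. Without dKO 48 h replicate 1 or 2, 0 of the 24 were called at 48 h, and without WT 48 h replicate 1 the counts were 10 and 3. With only the groups compared 1 rose and 1 fell, as in the fits that left out either dKO library of 24 h. With all 8 libraries, Egr1, Egr2 and Egr3 were called in none of these genotype comparisons. Without WT 48 h replicate 1, which leaves 1 WT library at 48 h, Egr3 was -0.70 at 48 h, as given above, and -0.34 over both times.

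The route from RAS through ERK to serum response factor was covered by 23 genes, all tested. With time 2 rose and 1 fell in WT, and 0 rose and 2 fell in dKO, with medians of -0.05 and -0.18. These are 13.0% and 8.70% of the list beside 11.4% and 3.63% of all genes, so the WT share lay near that of all genes. With only the groups compared, 0 were called in WT, and 4 rose and 9 fell in dKO, where 0.251% and 37.3% of all genes were called. Dusp6, the phosphatase of ERK, fell in both genotypes: from 30.4 ± 1.08 to 17.4 ± 3.17 CPM in WT and from 35.8 ± 1.98 to 11.96 ± 0.561 CPM in dKO (SD, n = 2 each). On the log2 scale this was -0.83 in WT (SE 0.174, adjusted p = 0.013) and -1.58 in dKO (SE 0.181, adjusted p = 0.00239). The WT call was lost without WT 24 h replicate 1 or 2, and the dKO call without dKO 24 h replicate 1 or either dKO 48 h replicate. In dKO the ELK family gene Elk3 fell by 0.91, and in WT Mkl2, a coactivator of serum response factor, rose by 1.43 and the kinase gene Araf rose by 0.78. By genotype 0 of 23 were called at 24 h, beside 0.432% of all genes. At 48 h Mkl2, Araf and Sos1, an exchange factor of RAS, fell by 1.09, 0.68 and 0.99, and 0 rose, which is 13.0% of the list beside 11.2% of all genes. All 3 of those calls were lost without any 1 dKO library, and Sos1 was also lost without either WT 24 h replicate or WT 48 h replicate 2. Srf itself was not called, at 34.8 ± 0.133 and 30.6 ± 5.31 CPM in WT at 24 and 48 h and at 37.5 ± 6.72 and 37.4 ± 0.357 CPM in dKO (SD, n = 2 each).

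Genes tied to EGR factors in T cells, as targets or as known partners in activation and anergy, formed a list of 23, of which 21 were tested (Bcl6 and Rnf128 were not). With time in WT 4 rose and 6 fell, with a median of -0.38 against 0.00 for all genes. In dKO 1 rose and 6 fell, with a median of -0.21 against -0.01. Those that fell in both genotypes included the chemokine gene Ccl1, by 1.45 and 2.66, and the adhesion gene Crtam, by 0.87 and 1.03. The inhibitory receptor gene Lag3 fell by 0.65 in WT and by 0.74 in dKO, the semaphorin gene Sema7a by 0.80 and 1.16, and Il2 by 1.34 and 2.06. The sixth was Tnfrsf9, a costimulatory receptor gene, in WT (-0.61) and Cd44, an activation marker, in dKO (-0.86). Cdkn1a, which encodes the cell cycle inhibitor p21, rose by 0.87 in WT. The other genes that rose were Nfil3 (1.05), Nrn1 (0.78) and Il2rb (0.57), an IL2 receptor chain gene, in WT and Il2rb (0.82) in dKO. These last genes, Tnfrsf9 and Cd44 were named after their values were seen. The list had 47.6% of its genes called in WT and 33.3% in dKO, beside 11.4% and 3.63% of all genes. It was chosen with earlier results of these data known, so these shares cannot serve as a test of it. The value of Il2 in WT was -1.89 without WT 48 h replicate 1 and -0.62 without replicate 2, and its call was lost without any 1 library other than WT 48 h replicate 1. With 1 library left out, the number that fell was lowest in WT without WT 24 h replicate 2. In dKO it was lowest without dKO 24 h replicate 1 or either dKO 48 h replicate. In both genotypes it was highest without WT 48 h replicate 1, and in dKO equally so without replicate 2. The calls over all genes were fewest and most in the same fits. With only the groups compared, 0 were called in WT, and 3 rose and 11 fell in dKO, where 0.251% and 37.3% of all genes were called. With library size alone 1 rose and 10 fell in WT, where 26.4% of all genes were called.

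By genotype the same list gave 4 higher and 0 lower at 24 h, 5 higher and 0 lower at 48 h, and 5 higher and 0 lower over both times. These are 19.0%, 23.8% and 23.8% of the list beside 0.432%, 11.2% and 7.80% of all genes. The list was chosen with earlier results of these data known, so these shares cannot serve as a test of it. At 48 h the number higher was 9 with library size alone, 3 in DESeq2 and 1 with only the groups compared, where 19.9%, 8.97% and 3.66% of all genes were called. Its median was 0.14 at 24 h and 0.03 at 48 h, against 0.01 and -0.03 for all genes. Ccl1, which encodes a ligand of CCR8, had 91 and 88 counts in WT and 1434 and 790 counts in dKO at 24 h. Its level rose from 12.9 ± 0.0970 to 152 ± 7.09 CPM (SD, n = 2 each), a log2 difference of 3.56 (SE 0.157, adjusted p = 3.9e-06), and at 48 h the difference was 2.35. Il2, the T cell growth factor gene, rose from 6.53 ± 0.304 to 50.2 ± 5.27 CPM at 24 h (SD, n = 2 each), a difference of 2.94 (SE 0.292, adjusted p = 0.00162), and at 48 h the difference was 2.22. The 48 h difference of Il2 ran from 1.50 without WT 48 h replicate 2 to 2.77 without replicate 1, and its call was lost without dKO 48 h replicate 1 or 2 and with only the groups compared. Cdkn1a was higher by 1.60 and 0.56 and Nrn1, a gene tied to anergic and regulatory cells, by 1.40 and 0.80. The 24 h calls of Ccl1 and Cdkn1a held with any 1 library left out. That of Il2 was lost without WT 24 h replicate 1 or 2, and that of Nrn1 without any 1 library of WT at 24 h or of dKO. The fifth gene at 48 h was Socs1, a feedback inhibitor of cytokine signals, at 0.62, and over both times it was Tnf at 0.57, both named after their values were seen. Without 1 library the count at 24 h ran from 2 higher without WT 24 h replicate 1 or 2 to 6 higher and 2 lower without WT 48 h replicate 1 or 2. At 48 h it ran from 1 higher without dKO 48 h replicate 1 or 2 to 8 higher and 4 lower without WT 48 h replicate 1. Egr2 and Egr3 were not called in the same comparisons with all 8 libraries, although Egr3 at 48 h was -0.48 (interval -0.87 to -0.08). Whether the genotype differences of the listed genes relate to EGR factors was not tested.

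**Figure D5:**
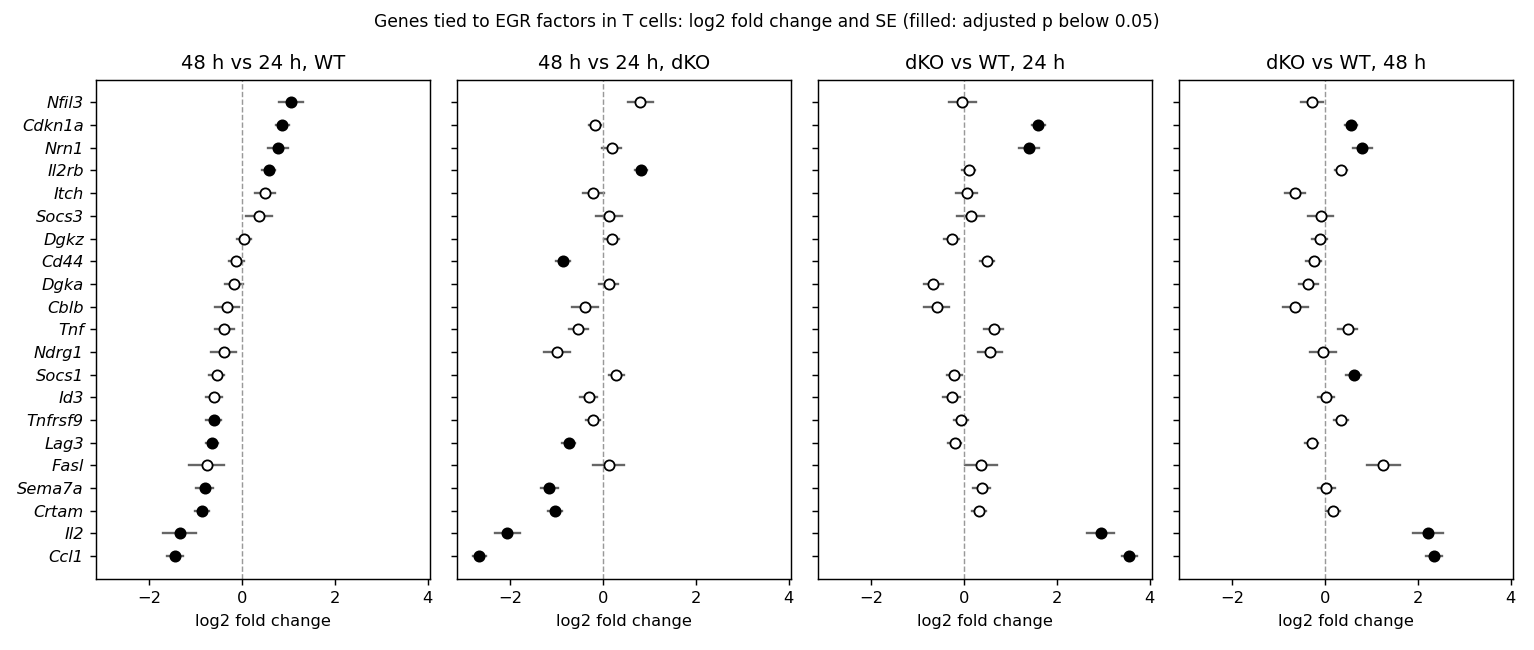
Log2 fold change with SE (horizontal axis) of the 21 tested genes tied to EGR factors in T cells (vertical axis), in 4 comparisons, with filled points for adjusted p below 0.05. Ccl1 and Il2 lie lowest with time and highest by genotype, at 3.56 and 2.94 at 24 h.

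The NuRD complex, through which NAB proteins repress, was covered by 13 genes, all tested. Mta2 was the single member called: it rose by 0.99 with time in WT (SE 0.169, adjusted p = 0.0041) and was lower by 0.68 in dKO at 48 h. Its level was 221 ± 27.8 CPM in WT at 24 h, 440 ± 58.9 CPM in WT at 48 h, 209 ± 6.67 CPM in dKO at 24 h and 274 ± 4.86 CPM in dKO at 48 h (SD, n = 2 each). The single call is 7.69% of the list, below the 11.4% and 11.2% of all genes in these comparisons. Leaving out any 1 dKO library ended the 48 h call. Without WT 48 h replicate 1, 5 of the 13 were higher and 6 lower in dKO at 48 h, 5 higher and 7 lower over both times, and 6 rose and 1 fell with time in WT, in fits where 49.2%, 42.3% and 31.8% of all genes were called. Chd4, the subunit that NAB2 binds, was not called in any of the 6 comparisons with all 8 libraries. It is named here after its values were seen: 146 and 356 CPM in the 2 WT libraries at 48 h, with 199 to 218 CPM at 24 h and 137 to 146 CPM in dKO at 48 h.

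Among all calls in these lists, those with time that held whichever library was left out were Ccl1 in both genotypes and Fosl1, Crtam, Cdkn1a, Mkl2 and Mta2 in WT. All 6 of these calls in WT, Ccl1 included, were lost when only the WT libraries entered the fit. Between genotypes they were Ccl1 at both times, Cdkn1a at 24 h, and Ccl1, Il2, Cdkn1a, Nrn1 and Nr4a2 over both times. Every other call in the lists was lost without at least 1 library.

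The genomic neighbours of the 5 genes were listed by 13 symbols, which stand for 11 genes, since Tmem194 and Tmem194b are older symbols of Nemp1 and Nemp2 in RefSeq and the table holds counts under each. Of these genes 10 were tested (Lrp1 was not), and 0 were called in any of the 6 comparisons with all 8 libraries. Without WT 48 h replicate 1, where 49.2% of all genes were called at 48 h, Mfsd6, Zfp365 and Tmem194 were lower in dKO at 48 h, by log2 values of -0.64, -1.18 and -0.59. Stat6, which overlaps Nab2, stood at 43.7 ± 1.97 and 45.3 ± 5.82 CPM in WT at 24 and 48 h and at 48.5 ± 1.03 and 41.9 ± 2.17 CPM in dKO (SD, n = 2 each). Nemp1, which also overlaps it, stood at 26.3 ± 2.24 and 28.3 ± 5.17 CPM in WT and at 27.1 ± 2.71 and 23.6 ± 0.109 CPM in dKO when the counts under both of its symbols were summed (SD, n = 2 each).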

How the data were processed

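RNA of 8 libraries in 4 groups of 2 was analysed. The authors deposited raw counts per gene symbol, whole numbers that were not normalized. Per the submitters' processing notes, reads were processed with cutadapt 1.18 and Bowtie2 2.2.5, with the build mm10. The sources used here do not give the counting program, its annotation or its strand rule. An unnamed entry equal to the column total (50% of each column sum) was left out.

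All libraries entered 1 fit in edgeR 4.0.16 (R 4.3.3) with a mean per group, TMM scaling and filterByExpr at a minimum count of 10. The quasi-likelihood F test was two-sided, and p was adjusted over 12742 genes (Benjamini-Hochberg) and called below 0.05. SE was computed as the size of the log2 fold change divided by the root of F. Counts of 3, the most that a count of 0 allows, equal 0.138 to 0.600 CPM. Alternatives were RLE scaling, library size alone, DESeq2 1.42.0, no filter, a mean of at least 50 counts, a replicate block, fits on the groups compared, and each library left out. Leaving out a library keeps 1 library in its group, so p in those fits rests on the spread within the other groups.

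The members and gene lists were chosen with earlier results of these data known. Named list genes are up to 4 called per comparison by smallest p, with others marked in the text. Genes most alike are the 3 with the highest Pearson r of log2 CPM (prior count 2). Wt1 was not used here.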

Additional observations from a re-analysis of the deposited data

How the results depend on the processing

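With 2 libraries per group, depth and number limit the precision. WT 48 h had the widest spread between replicates, and its part in the shared estimate was not tested. Of 440 alternative values of single members, 383 kept direction and side of the threshold, 5 lost a call, 23 gained one and 29 turned. Only Egr2 with time was called among the members, so no other result could lose a call. It lost the call in 4 of 15 alternatives in dKO and in 1 of 15 in WT. Of 1021 alternative values of called list genes, 713 kept their call, 308 lost it and 0 turned. The cause was not tested.

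The number of members called with time in WT was 2 with library size alone and 0 with only the groups compared. The shares of all genes called there were 26.4% and 0.251%. With time in dKO it was 3 with library size alone, 3 with no filter and 5 with only the groups compared. The shares of all genes called there were 5.80%, 7.18% (of 22981 genes tested) and 37.3%. With 1 library left out, the number changed in some fits for time in WT and in dKO. It also changed for genotype at 48 h, over both times and for the interaction. A group then has a single library, and the share of all genes called changed as well.

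The number of genes called at 24 h between genotypes was 206 with no filter, 181 with only the groups compared and 13 to 371 with 1 library left out. At 48 h it was 2531 with library size alone (1615 higher and 916 lower), 2962 with no filter, 444 with only the groups compared and 15 to 6521 with 1 library left out. Over both times it was 2264 with no filter and 56 to 5606. For the interaction it was 170 with no filter and 0 to 3459. With time in WT it was 3366 with library size alone (725 higher and 2641 lower), 31 with only the groups compared and 595 to 4212. With time in dKO it was 739 with library size alone (143 higher and 596 lower), 1649 with no filter, 4546 with only the groups compared and 32 to 3303.

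Values that turned lay near 0. With library size alone they were, at 48 h, Egr2 0.0585 and Nab1 0.124, over both times Nab1 0.0683, for the interaction Nab1 0.11, and with time in WT Nab2 -0.10. With a mean of at least 50 counts they were Egr1 -0.0520 at 48 h and Egr2 -0.0209 for the interaction. With 1 library left out, the 24 h difference ran from -0.0217 to 0.492 for Egr1, -0.270 to 0.0059 for Egr2, -0.0301 to 0.114 for Egr3 and -0.0440 to 0.0896 for Nab1. The 48 h difference ran from -0.116 to 0.148 for Egr1, -0.299 to 0.0382 for Egr2 and -0.137 to 0.0229 for Nab1. Over both times Egr1 ran from -0.00299 to 0.255 and Nab1 from -0.0621 to 0.0217. The interaction ran from -0.476 to 0.0374 for Egr1, -0.147 to 0.190 for Egr2, -0.149 to 0.0103 for Nab1 and -0.0155 to 0.219 for Nab2. The time difference of Egr3 in WT ran from -0.452 to 0.0545.

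With the replicate block, the genes called were 56 at 24 h, 1285 at 48 h, 938 over both times, 0 for the interaction, 1369 with time in WT and 404 with time in dKO, and the members called did not change in number. Differences between replicates 1 and 2 correlated at -0.08 to 0.17 across groups, so the numbers gave no pairing.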
